A study of Mus musculus with 4 samples.

Results

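The genes described here are those that build cholesterol and fatty acids, sense sterol, and move cholesterol out of the cell. The list was set by gene name, with earlier results of these data known, as 38 gene symbols that stand for 37 genes, since Sc4mol is the older symbol of Msmo1. Of the symbols, 36 were found as whole entries in both gene tables, and 34 had a mean of at least 1 FPKM (fragment counts scaled to transcript length and sequencing depth) over the 4 libraries and were tested among 10603 genes. The cells were induced regulatory T (iTreg) cells of mouse strain C57BL/6, made from sorted naive T cells by 3 days of culture on plate-bound anti-CD3/CD28 at 1 µg/ml with TGF-beta at 2 ng/ml. Libraries came from MSC KO mice (2 libraries) and WT mice (2 libraries), treated alike, and the question is how the transcripts of these cells differ when the gene for musculin, a basic helix-loop-helix repressor, is targeted. The labels give neither the kind of knockout allele nor whether the libraries came from separate mice, so each p-value reflects no more than the scatter among these samples, possibly technical. One deposited table holds MSC KO 1 with WT 1 and the other MSC KO 2 with WT 2, and each difference was taken within a table.

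Cells make cholesterol from acetyl-CoA through mevalonate, isoprenoid diphosphates and squalene. When membrane sterol is low, SCAP escorts the transcription factors SREBP-1 and SREBP-2 from the endoplasmic reticulum to the Golgi for cleavage, and they then switch on sterol and fatty acid enzymes, while INSIG proteins hold SCAP back when sterol is plentiful. The oxysterol receptors LXR act on the other side and induce exporters of the ABC family, and T cells switch on sterol and lipid synthesis as they are activated and grow.

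Before the results, the labels were checked against their marker genes. Msc, the targeted gene, stood at 0.331 and 0.939 FPKM in MSC KO 1 and 2, against 0.0243 and 0.0178 FPKM in WT 1 and 2, so it was higher in the libraries labelled MSC KO. These levels rest on about 17 and 56 fragments, against about 1 in each WT library. Without the filter on low values the difference was not called (limma adjusted p = 0.265). Because the labels do not say which exons were removed, this level does not show whether a working product was made. Foxp3, the defining factor of regulatory T cells, was at 2.97 and 7.05 FPKM in the libraries labelled MSC KO, against 62.8 and 66.0 FPKM in WT. Even this gene, with a fitted difference of -3.53 on the log2(FPKM + 1) scale, was not called (limma adjusted p = 0.114). The other 4 genes of the regulatory T cell list were divided. Ikzf2 and Lrrc32 were lower in both libraries labelled MSC KO, Ctla4 was higher in both, at 217 and 188 FPKM in MSC KO-labelled cells against 112 and 120 FPKM in WT, and Il2ra overlapped. The list summed to 592 and 518 FPKM in the libraries labelled MSC KO and 510 and 538 FPKM in WT. Most of this sum was Il2ra and Ctla4, so it does not show the fall of Foxp3. The summed level of the 6 CD4 T cell markers was 1202 and 1133 FPKM in the libraries labelled MSC KO and 1126 and 1157 FPKM in WT. Among them, Cd28, Cd3e and Lck were lower in both libraries labelled MSC KO, Cd3g was higher in both, and Cd3d and Cd4 overlapped. B cell markers summed to at most 7.25 FPKM in any library, fat cell markers to at most 0.282 FPKM, and myeloid markers to 4.15 and 4.02 FPKM in the libraries labelled MSC KO, against 1.87 and 1.67 FPKM in WT, most of it Cd68. CD8 T cell markers summed to 9.13 and 19.8 FPKM in the libraries labelled MSC KO, against 11.3 and 11.7 FPKM in WT. Of these, Cd8a was lower in both libraries labelled MSC KO and Cd8b1 overlapped. Depth, estimated roughly from the steps between low values, was 29500000 and 34200000 fragments in the libraries labelled MSC KO and 26900000 and 36800000 in WT. The MSC KO libraries differed from each other by 0.207 on the log2 scale (robust SD over 4024 genes of at least 20 FPKM) and the WT libraries by 0.0644. Every direction below is that of the library labelled MSC KO, whatever its Msc status.

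Promoters of 4 members are shown because SREBP acts at the start of these genes together with NF-Y, which binds the CCAAT box. Hmgcs1, the HMG-CoA synthase, is the textbook carrier of a sterol regulatory element, and Mvk, Sc5d and Nsdhl are synthesis genes with large differences in both tables. Each runs from 250 bases before to 50 bases after the start of the transcript, 5′ to 3′ along the gene, from RefSeq on GRCm38.p6, whereas the expression tables are on mm9. Capitals mark TCACNCCAC, a fixed spelling of the sterol regulatory element, or CCAAT, both as read on either strand. ATTGG is thus CCAAT on the other strand. Other spellings of the sterol element were not searched, so a window without TCACNCCAC may still hold the element.
Hmgcs1 (GRCm38.p6, chr13:119690101-119690400, plus strand): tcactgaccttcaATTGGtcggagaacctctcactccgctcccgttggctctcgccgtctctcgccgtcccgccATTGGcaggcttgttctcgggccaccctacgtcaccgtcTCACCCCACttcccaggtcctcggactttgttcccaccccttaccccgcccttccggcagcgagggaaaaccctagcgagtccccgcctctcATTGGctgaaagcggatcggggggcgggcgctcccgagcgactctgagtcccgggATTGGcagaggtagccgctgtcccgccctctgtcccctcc
Mvk (GRCm38.p6, chr5:114444019-114444318, plus strand): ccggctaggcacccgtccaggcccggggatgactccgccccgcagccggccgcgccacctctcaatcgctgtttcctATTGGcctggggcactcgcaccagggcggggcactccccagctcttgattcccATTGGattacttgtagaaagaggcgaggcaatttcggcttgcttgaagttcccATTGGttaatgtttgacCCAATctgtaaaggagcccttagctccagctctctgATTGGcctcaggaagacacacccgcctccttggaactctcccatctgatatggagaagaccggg
Sc5d (GRCm38.p6, chr9:42264251-42264550, minus strand): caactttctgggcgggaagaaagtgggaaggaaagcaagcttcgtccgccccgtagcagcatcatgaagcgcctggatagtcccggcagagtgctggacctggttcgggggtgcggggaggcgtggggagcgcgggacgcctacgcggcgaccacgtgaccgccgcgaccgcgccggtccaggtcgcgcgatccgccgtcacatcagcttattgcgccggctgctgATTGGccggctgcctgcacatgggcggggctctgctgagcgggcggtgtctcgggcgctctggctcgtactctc
Nsdhl (GRCm38.p6, chrX:72918271-72918570, plus strand): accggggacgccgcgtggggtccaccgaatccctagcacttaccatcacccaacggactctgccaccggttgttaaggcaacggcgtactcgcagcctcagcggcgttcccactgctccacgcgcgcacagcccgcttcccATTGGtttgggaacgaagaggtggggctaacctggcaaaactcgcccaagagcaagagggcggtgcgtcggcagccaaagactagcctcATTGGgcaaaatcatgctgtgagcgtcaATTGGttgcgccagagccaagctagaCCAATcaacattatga
The Hmgcs1 window held 4 CCAAT boxes and 1 sterol element, which begins 137 bases before the start. The windows of Mvk, Nsdhl and Sc5d held 5, 4 and 1 CCAAT boxes and no TCACNCCAC. Of the 29 member genes with a promoter in the table, 22 (75.9%) held CCAAT, against 43.4% of the 7510 tested genes with a promoter and 37.4% of all 32851 promoters. Among the 15 sterol synthesis genes with a promoter, 14 held it. The GC box GGGCGG, which Sp1 binds, was in 79.3% of member genes and 71.1% of tested genes. E-boxes, which basic helix-loop-helix proteins bind, stood close to the background in their general form CANNTG, in 72.4% of member genes and 66.2% of tested genes. Of its forms, CACGTG was in 24.1% of member genes against 12.4% of tested genes, and CAGCTG in 13.8% against 17.0%. TCACNCCAC was in 1 member gene, Hmgcs1, and in 1.37% of tested genes. These matches are a description of letters in a window and not of binding.

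Sterol synthesis genes were lower in the libraries labelled MSC KO. All 16 that were tested had a lower level than WT in both tables, where 37.5% of all tested genes did, and in 15 of the 16 both MSC KO-labelled libraries lay below both WT libraries, where 32.5% of all tested genes did. Their summed level was 901 and 986 FPKM in the libraries labelled MSC KO, against 1192 and 1215 FPKM in WT, which is 75.5% of WT 1 and 81.1% of WT 2. The median difference, on the log2(FPKM + 1) scale, was -0.34, beside -0.02 over all tested genes, and -0.40 and -0.30 within the tables. No synthesis gene passed the test (limma with the table as a block, Benjamini-Hochberg adjustment over 10603 genes, threshold 0.05), a rule by which 0.00943% of tested genes were called. The smallest adjusted p of the group in limma was 0.152. After quantile normalization 15 of the 16 were lower in both tables. In bulk libraries, fewer cells that use a gene and less RNA per cell cannot be told apart.

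The mevalonate arm, which turns acetyl-CoA into farnesyl diphosphate, had 6 tested members with a median difference of -0.35 on the log2 scale. Mvk (mm9 chr5:114894314-114910599), the kinase that phosphorylates mevalonate, was at 23.7 and 24.3 FPKM in MSC KO 1 and 2, against 34.3 and 35.9 FPKM in WT 1 and 2. Both libraries labelled MSC KO were lower and the groups did not overlap, with 69.2% of the WT 1 level and 67.7% of the WT 2 level and a difference of -0.53 ± 0.09 (SE, n = 2 per group; limma adjusted p = 0.152). Fdps, which makes farnesyl diphosphate, was the second most abundant of all members, at 282 and 295 FPKM in the libraries labelled MSC KO, against 381 and 371 FPKM in WT. Its groups also stood apart, by -0.38 ± 0.09 on the log2 scale (limma adjusted p = 0.179). Idi1, the isomerase of isopentenyl diphosphate, was at 72.7 and 74.9 FPKM in the libraries labelled MSC KO, against 92.4 and 93.0 FPKM in WT. Replicates of this gene lay close together in both groups, and the libraries labelled MSC KO held 78.7% and 80.6% of the WT level.

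Mvd, the decarboxylase that forms isopentenyl diphosphate, was at 48.7 and 62.1 FPKM in the libraries labelled MSC KO, against 70.8 and 76.2 FPKM in WT. Acat2, the cytosolic thiolase at the head of the arm, was at 31.7 and 38.8 FPKM in MSC KO-labelled cells, against 41.5 and 43.0 FPKM in WT. For both genes MSC KO 1 was the lowest library and the groups did not overlap. Pmvk, the phosphomevalonate kinase, was the member of the arm that overlapped, with 55.7 and 60.9 FPKM in the libraries labelled MSC KO against 59.4 and 61.8 FPKM in WT. It is placed between Mvk and Mvd in the pathway, yet its difference was -0.06 ± 0.09 on the log2 scale (limma adjusted p = 0.757), beside -0.53 for Mvk and -0.41 for Mvd, and it reached 0.0074 without MSC KO 1. Hmgcs1 was listed at 0 in all 4 libraries, in rows placed on an unassembled piece of chromosome 13 of mm9, so no level was read for it.

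**Figure D1:**
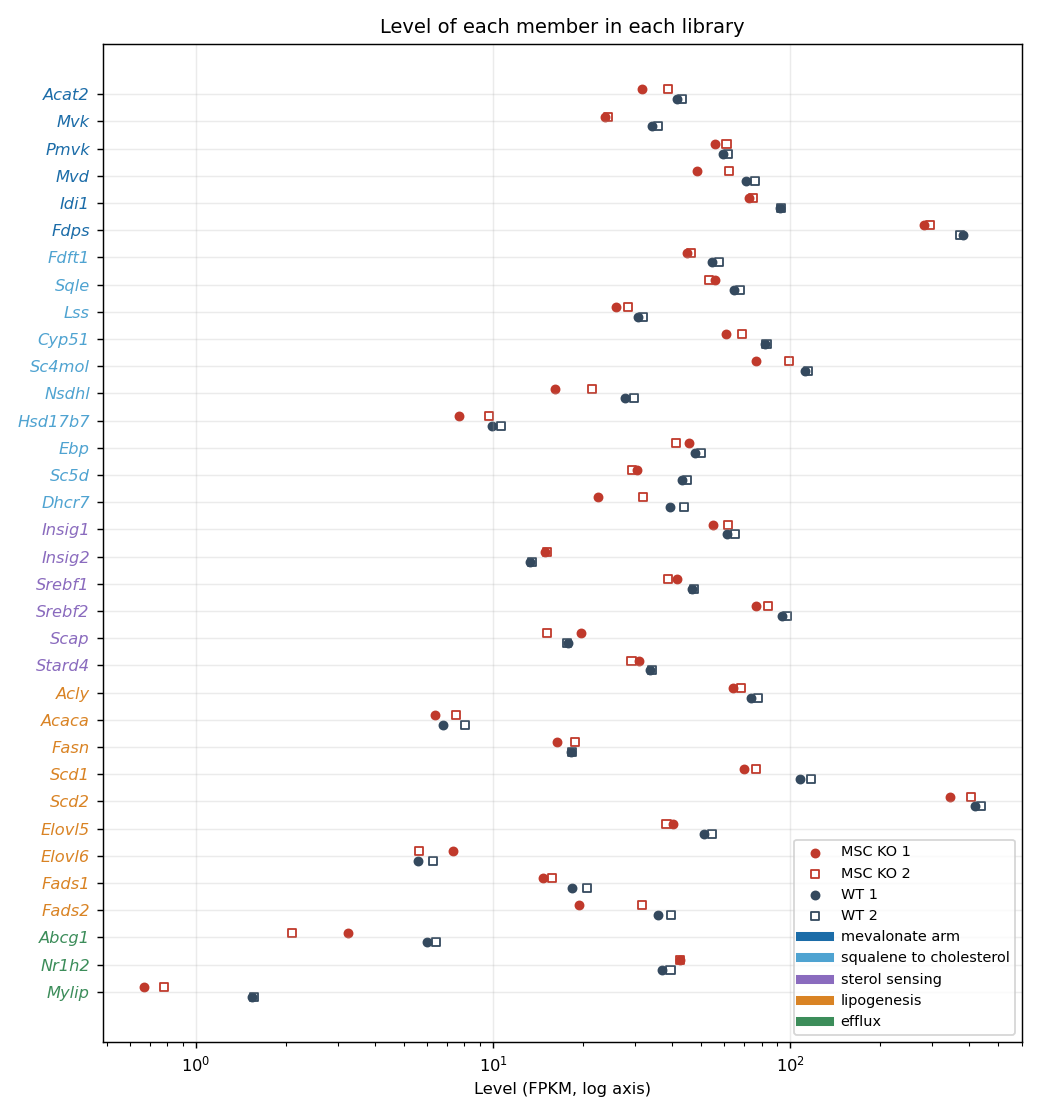
Level of the 34 tested members in each library, in FPKM on a log axis, with genes in pathway order and names coloured by role; red symbols are MSC KO and dark symbols WT, circles replicate 1 and squares replicate 2. The red symbols of 26 members lie left of both dark ones, a position that 32.5% of all tested genes share. Those of Insig2 and Nr1h2 lie right of them, as do 26.6% of all tested genes.

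From squalene to cholesterol, 10 members were tested and all 10 had both libraries labelled MSC KO below both WT libraries, where 32.5% of all tested genes did. The largest differences of this stretch were those of Dhcr7, Nsdhl and Sc5d. Dhcr7, the reductase that finishes cholesterol, was at 22.5 and 31.9 FPKM in MSC KO 1 and 2, against 39.3 and 43.8 FPKM in WT 1 and 2. Nsdhl, a dehydrogenase in the removal of methyl groups at carbon C4, was at 16.2 and 21.6 FPKM in the libraries labelled MSC KO, against 27.7 and 29.8 FPKM in WT. Both genes were lower in MSC KO 1 than in MSC KO 2, with 57.3% and 72.8% of WT for Dhcr7 (mm9 chr7:151009071-151034315) and 58.3% and 72.3% for Nsdhl (mm9 chrX:70163859-70203867). Their differences were -0.61 ± 0.13 (limma adjusted p = 0.170) and -0.60 ± 0.12 (limma adjusted p = 0.163) on the log2 scale. Sc5d, the sterol C5 desaturase, was at 30.4 and 29.3 FPKM in the libraries labelled MSC KO, against 43.2 and 44.8 FPKM in WT. Its replicates were close, and the difference was -0.54 ± 0.09 on the log2 scale (limma adjusted p = 0.152).

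The other 7 had differences between -0.37 and -0.17 on the log2 scale. Fdft1, the squalene synthase, was at 44.8 and 46.3 FPKM in the libraries labelled MSC KO, against 54.6 and 57.5 FPKM in WT, at a locus that also holds Ctsb. Sqle, the squalene epoxidase, was at 55.7 and 53.4 FPKM in the libraries labelled MSC KO, against 64.7 and 67.7 FPKM in WT. Lss, the cyclase that forms lanosterol, was at 25.8 and 28.5 FPKM in MSC KO-labelled cells, against 30.8 and 31.9 FPKM in WT. In these 3 genes the libraries labelled MSC KO held between 78.9% and 89.1% of the WT level in each table. Cyp51, the lanosterol demethylase, was at 60.8 and 68.9 FPKM in the libraries labelled MSC KO, against 82.3 and 83.1 FPKM in WT. Sc4mol, the methyl oxidase now called Msmo1, was at 76.9 and 99.1 FPKM in MSC KO-labelled cells, against 112 and 114 FPKM in WT. Both were lower in MSC KO 1 than in MSC KO 2 and did not overlap with WT. Hsd17b7, the ketosteroid reductase of the route, was the least abundant synthesis gene, at 7.70 and 9.68 FPKM in MSC KO-labelled cells, against 9.93 and 10.6 FPKM in WT. Ebp, the sterol isomerase, was at 45.6 and 41.2 FPKM in MSC KO-labelled cells, against 47.7 and 49.9 FPKM in WT, the smallest difference of the stretch at -0.17 on the log2 scale. Tm7sf2, a sterol reductase, appeared only in a row joined with another gene and was not used.

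**Figure D2:**
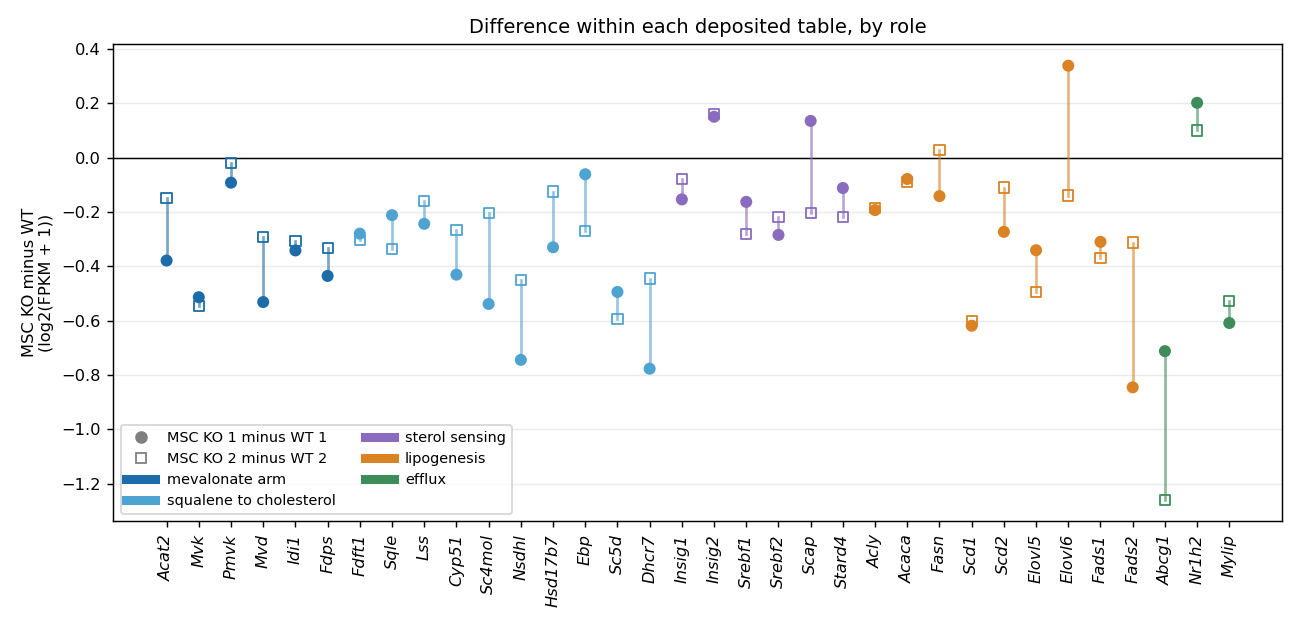
Difference of MSC KO minus WT within each deposited table, on the log2(FPKM + 1) scale, for the 34 tested members in pathway order; circles are MSC KO 1 minus WT 1, squares MSC KO 2 minus WT 2, lines join the 2 values of a gene, and colours give the role. All 16 synthesis genes lie below 0 in both tables, Insig2 and Nr1h2 lie above 0 in both, and Scap, Fasn and Elovl6 lie on both sides.

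The genes that sense sterol had a smaller median difference than the genes that make it, a contrast that was not tested. Of 6 tested, 4 were lower in both tables, where 37.5% of all tested genes were. Insig2 was higher in both, where 31.2% were, and Scap was mixed. The median difference of the 6 was -0.14 on the log2 scale, beside -0.02 over all tested genes. Srebf2, which encodes SREBP-2, the factor most tied to cholesterol genes, was at 76.6 and 83.8 FPKM in MSC KO 1 and 2, against 93.6 and 97.7 FPKM in WT 1 and 2. Its groups did not overlap and the difference was -0.25 ± 0.09 on the log2 scale (limma adjusted p = 0.262). Srebf1, which encodes SREBP-1, was at 41.5 and 38.8 FPKM in the libraries labelled MSC KO, against 46.6 and 47.4 FPKM in WT. The locus given for Srebf1 overlaps Rai1 and that for Srebf2 holds Mir33, so reads of these neighbours may enter. Scap was at 19.7 and 15.2 FPKM in the libraries labelled MSC KO, against 17.9 and 17.7 FPKM in WT. MSC KO 1 was above WT and MSC KO 2 below it, and the fitted difference of -0.03 became 0.14 without MSC KO 2.

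The INSIG genes, which encode the proteins that retain SCAP, lay on opposite sides. Insig1, itself a target of SREBP, was at 54.9 and 61.5 FPKM in the libraries labelled MSC KO, against 61.1 and 65.0 FPKM in WT. The groups overlapped, although each library labelled MSC KO was below its WT partner. Insig2 was at 14.9 and 15.2 FPKM in the libraries labelled MSC KO, against 13.3 and 13.5 FPKM in WT. Both libraries labelled MSC KO were higher, by 0.15 ± 0.09 on the log2 scale (limma adjusted p = 0.398), and the ratio of Insig1 to Insig2 within a library was 3.69 and 4.04 in MSC KO-labelled cells, against 4.59 and 4.81 in WT. Stard4, a carrier of sterol between membranes, was at 31.0 and 29.2 FPKM in the libraries labelled MSC KO, against 33.6 and 34.2 FPKM in WT, with no overlap.

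Most fatty acid genes were lower in the libraries labelled MSC KO. All 9 members were tested, 7 were lower in both tables, where 37.5% of all tested genes were, and 2 were mixed. The median difference was -0.19 on the log2 scale, beside -0.02 over all tested genes. Fasn, the fatty acid synthase, was at 16.4 and 18.8 FPKM in MSC KO 1 and 2, against 18.2 and 18.5 FPKM in WT 1 and 2. Acaca, the carboxylase that commits acetyl-CoA to fatty acids, was at 6.36 and 7.50 FPKM in the libraries labelled MSC KO, against 6.78 and 8.04 FPKM in WT. Both overlapped between the groups, with differences of -0.06 and -0.08 on the log2 scale, and each had the opposite sign without MSC KO 1, as Acaca had without WT 2. Acly, which makes cytosolic acetyl-CoA from citrate for both routes, was at 64.1 and 68.0 FPKM in MSC KO-labelled cells, against 73.4 and 77.5 FPKM in WT, without overlap.

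The 4 desaturases were lower in both tables, where 37.5% of all tested genes were. Scd1, the stearoyl-CoA desaturase that makes oleate, had the smallest adjusted p of all members, with 69.9 and 76.8 FPKM in the libraries labelled MSC KO against 108 and 117 FPKM in WT. The libraries labelled MSC KO held 64.8% and 65.6% of WT, a difference of -0.61 ± 0.09 on the log2 scale (limma adjusted p = 0.139). Its paralog Scd2, the most abundant member, was at 345 and 404 FPKM in the libraries labelled MSC KO, against 418 and 437 FPKM in WT. Within a library the ratio of Scd1 to Scd2 was 0.202 and 0.190 in MSC KO-labelled cells, against 0.258 and 0.268 in WT, where reads shared between the paralogs are uncertain. The pair lies on 1 stretch of mm9 chromosome 19, Scd2 at chr19:44368165-44381352 and Scd1 at chr19:44468939-44482199, and Fads2 and Fads1 are on the same chromosome at chr19:10137276-10176261 and chr19:10257377-10271362. Fads2, the delta-6 desaturase, was at 19.4 and 31.6 FPKM in the libraries labelled MSC KO, against 35.7 and 39.5 FPKM in WT. The libraries labelled MSC KO were unequal, at 54.4% of WT 1 and 80.0% of WT 2. Fads1, the delta-5 desaturase, was at 14.7 and 15.8 FPKM in MSC KO-labelled cells, against 18.4 and 20.7 FPKM in WT, with no overlap.

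The elongases did not share a direction. Elovl5, which lengthens polyunsaturated chains, was at 40.3 and 38.3 FPKM in the libraries labelled MSC KO, against 51.2 and 54.3 FPKM in WT, with a difference of -0.42 on the log2 scale (limma adjusted p = 0.186). Elovl6, which lengthens palmitate to stearate, was at 7.31 and 5.61 FPKM in the libraries labelled MSC KO, against 5.58 and 6.28 FPKM in WT. MSC KO 1 was the highest library for this gene, while MSC KO 2 lay between the WT libraries, and the fitted difference of 0.10 ± 0.16 became -0.066 without MSC KO 1. The ratio of Elovl5 to Elovl6 within a library was 5.51 and 6.83 in MSC KO-labelled cells, against 9.19 and 8.65 in WT.

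The genes of the efflux group, in which only Abcg1 and Abca1 are exporters, pointed in different directions. Abcg1 (mm9 chr17:31194638-31254926), which hands cholesterol to lipoprotein particles and is induced by LXR, was at 3.25 and 2.10 FPKM in MSC KO 1 and 2, against 5.97 and 6.41 FPKM in WT 1 and 2. It was lower in both libraries labelled MSC KO, at 54.5% and 32.7% of WT, a difference of -0.99 ± 0.18 on the log2(FPKM + 1) scale (limma adjusted p = 0.153). It was the largest of any tested member at that pseudocount of 1, but with a pseudocount of 5 it was -0.55, beside -0.58 for Scd1. In the authors' deposited table Abcg1 had a p-value of 0.108 and a q-value of 0.999 for the first pair, and 0.0028 and 0.183 for the other. Mylip, a ubiquitin ligase that LXR induces and that sends lipoprotein receptors to degradation, was at 0.669 and 0.782 FPKM in the libraries labelled MSC KO, against 1.55 and 1.57 FPKM in WT. The libraries labelled MSC KO held 43.3% and 49.8% of the WT level, from about 61 and 82 fragments against 127 and 177 in WT, a difference of -0.57 ± 0.17 on the log2 scale (limma adjusted p = 0.229), or -0.20 with a pseudocount of 5. Nr1h2, which encodes the receptor LXR-beta, was at 42.6 and 42.4 FPKM in MSC KO-labelled cells, against 36.9 and 39.5 FPKM in WT. It was the other member, beside Insig2, higher in both libraries labelled MSC KO, by 0.15 ± 0.09 on the log2 scale (limma adjusted p = 0.436).

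Abca1 (mm9 chr4:53043660-53172767), which exports cholesterol to apolipoprotein A-I and is also induced by LXR, lay on the other side of Abcg1 at a very low level. It was at 0.386 and 0.0967 FPKM in the libraries labelled MSC KO, against 0.0382 and 0.0354 FPKM in WT, and was not tested because its mean was under 1 FPKM. Both libraries labelled MSC KO were above both WT libraries, by a ratio of 9.70 (95% exact Clopper-Pearson limits 5.23 and 19.96) in the first table and 2.81 (1.45 and 5.81) in the second. These limits cover counting error only and rest on about 117 and 34 fragments in the libraries labelled MSC KO, against 11 and 13 in WT. Without the filter on low values, the difference was 0.25 ± 0.10 on the log2(FPKM + 1) scale (limma adjusted p = 0.380). The authors' deposited table gives Abca1 a p-value of 0.0326 and a q-value of 0.600 for the first pair. Most of the higher myeloid sum given above was Cd68. It was at 3.85 and 3.39 FPKM in the libraries labelled MSC KO, against 1.35 and 1.39 FPKM in WT. Of the other myeloid markers, Lyz2, Itgam, Emr1 and Itgax overlapped between the groups. Csf1r was at 0 and 0 FPKM in MSC KO-labelled cells, against 0.0441 and 0.0129 FPKM in WT. The part of myeloid cells in the Abca1 level was not tested. At the filter, Mylip was the member just inside, with a mean of 1.14 FPKM, and Abca1 the member just outside.

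**Figure D3:**
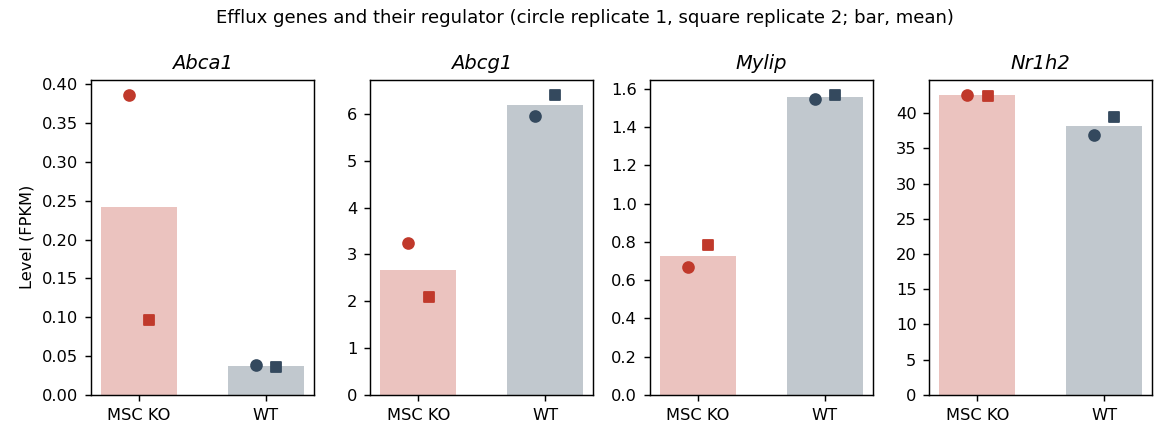
Level in FPKM of Abca1, Abcg1, Mylip and Nr1h2 in each library, MSC KO left of WT; circles are replicate 1, squares replicate 2 and bars the mean of the 2 libraries, and each panel has its own axis from 0. Abca1 and Nr1h2 are higher in both libraries labelled MSC KO, and Abcg1 and Mylip are lower in both.

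Set side by side, the roles differed in the size of their medians and no test of the contrast was made. The median of sterol synthesis minus that of lipogenesis was -0.13 for the first pair of libraries and -0.11 for the other, on the log2 scale. The median of sterol synthesis minus that of efflux was 0.20 and 0.23, from only 3 tested efflux genes. Their median is the value of Mylip, which is not an exporter and had a mean of 1.14 FPKM. The sign of this contrast depended on the handling of low genes, with -0.12 at a pseudocount of 5. Over all 34 tested members, 29 were lower in both tables, where 37.5% of tested genes were, and 2 were higher in both, where 31.2% were. The other 3 were mixed. Insig2 and Nr1h2 were also the members with both libraries labelled MSC KO above both WT libraries, where 26.6% of tested genes were. At least 0.25 lower on the log2 scale in both tables were 15 members, where 11.1% of tested genes were, and at least as far higher in both were 0 members, where 9.94% of tested genes were. The fitted difference of 24 members lay in the lowest 25% of all tested genes (under -0.18 on the log2 scale) and that of 1 member, Insig2, in the highest 25%. For 24 members the difference was larger than the gap between the MSC KO-labelled replicates, against 50.2% of tested genes. No member passed the limma test, and at an unadjusted p under 0.05 there were 15 lower and 0 higher, against 11.2% and 9.2% of tested genes (20.4% in either direction). Fits that left out 1 library labelled MSC KO had no table block and took their spread from the 2 WT libraries alone. The WT libraries differed less from each other than the MSC KO libraries did (robust SD 0.0644 against 0.207 on the log2 scale). The number of calls in those fits therefore cannot be set beside this one. The authors' own test called 0 members in either table, where it called 0.634% and 0.558% of the tested genes.

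Cell cycle genes were lower as well. All 18 tested were lower in both tables, where 37.5% of all tested genes were, and in all 18 both libraries labelled MSC KO lay below both WT libraries, where 32.5% of all tested genes did. They had a median difference of -0.34 on the log2 scale, beside -0.34 for sterol synthesis. Top2a, which untangles DNA at mitosis, was at 100.1 and 117 FPKM in the libraries labelled MSC KO, against 143 and 152 FPKM in WT. The part of the cell cycle genes in the sterol result was not tested.

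Genes next to the route did not share one direction. The 39 tested cover the isoprenoid branch, SREBP processing, sterol handling and fatty acid supply. Of them, 20 (51.3%) were lower in both tables, where 37.5% of all tested genes were. Another 11 were higher in both, where 31.2% of all tested genes were, and 8 were mixed. Their median was -0.02 on the log2 scale, as over all tested genes. None passed the limma test. At an unadjusted limma p under 0.05, 8 of the 39 were lower and 4 of the 39 higher, against 11.2% and 9.2% of all tested genes. Npc2, Fnta, Pdss1 and Dgat1 are named below beside their partners, a choice made after seeing their values. Npc1, which lets cholesterol out of lysosomes, was at 11.995 and 14.1 FPKM in the libraries labelled MSC KO, against 21.7 and 21.6 FPKM in WT (limma adjusted p = 0.142). Lipa, the lysosomal lipase that frees that cholesterol from its esters, was at 11.8 and 14.6 FPKM in MSC KO-labelled cells, against 16.8 and 18.6 FPKM in WT, without overlap. Npc2, the soluble partner of Npc1 in lysosomes, was at 122 and 85.4 FPKM in MSC KO-labelled cells, against 80.1 and 82.7 FPKM in WT. It was higher mainly in MSC KO 1, with 152% of WT 1 but 103% of WT 2 (limma adjusted p = 0.388). Mbtps1, the Golgi protease that makes the first cut in SREBP, was lower by -0.36 on the log2 scale, while Erlin1 and Erlin2, endoplasmic reticulum proteins tied to SREBP control, were higher by 0.29 and 0.32. Aacs, the acetoacetyl-CoA synthetase, and Acss2, the cytosolic acetyl-CoA synthetase, had differences of -0.47 and -0.50. Ggps1, Fntb and Dhdds, which use farnesyl diphosphate for isoprenoid products, had -0.31, -0.19 and -0.15. Of the same branch, Fnta, the other subunit of the farnesyltransferase, had 0.06 and was higher in both tables, and Pdss1, which makes the tail of coenzyme Q, had 0.30 with mixed signs. Acsl4, which activates arachidonate, was at 32.9 and 30.4 FPKM in the libraries labelled MSC KO, against 23.5 and 22.4 FPKM in WT, and Dgat2, which makes triglyceride, was at 5.80 and 8.69 FPKM in MSC KO-labelled cells, against 13.04 and 11.8 FPKM in WT. Dgat1, which catalyses the same step as Dgat2, was at 26.1 and 13.7 FPKM in the libraries labelled MSC KO, against 11.2 and 10.4 FPKM in WT (limma adjusted p = 0.229). Acsl4 and Dgat1 were higher and Dgat2 lower in both libraries labelled MSC KO, without overlap.

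**Figure D4:**
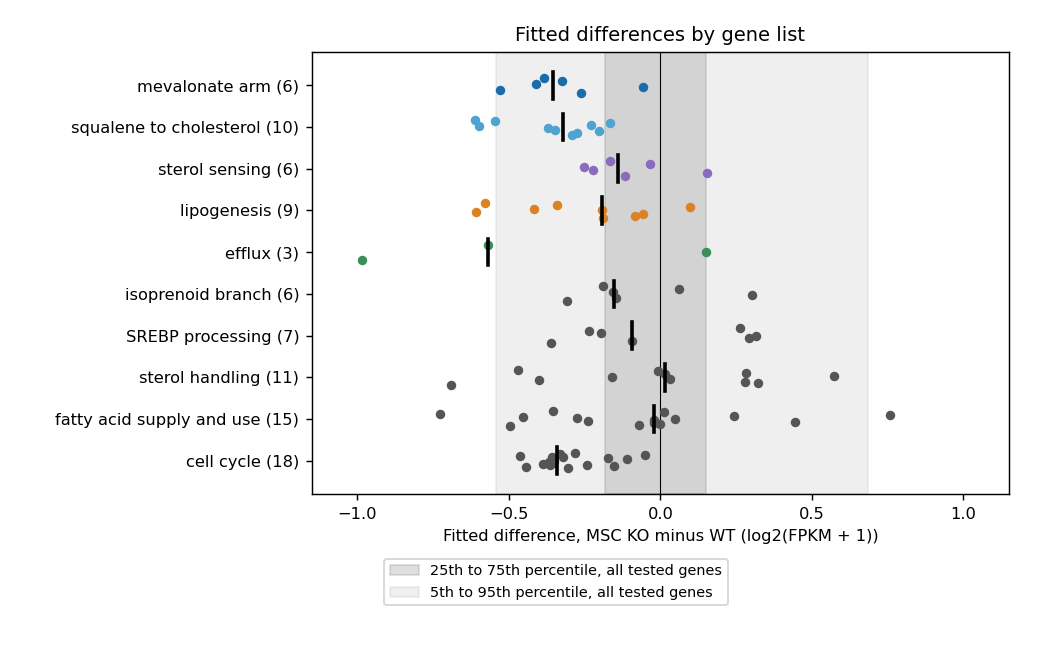
Fitted difference of MSC KO minus WT on the log2(FPKM + 1) scale for the tested genes of each list, with the number tested in brackets; each point is a gene, the black bar is the median, and the grey bands run between the 25th and 75th and between the 5th and 95th percentiles of all 10603 tested genes. Mevalonate, squalene and cell cycle genes lie mostly left of the inner band, which starts at -0.18, while the related lists spread on both sides of 0.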

How the data were processed

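RNA-seq libraries of iTreg cells, 2 labelled MSC KO and 2 WT, were analysed from 2 deposited gene tables. The submitters' processing notes name TopHat and the build mm9, while version, gene annotation and counting program were not given in the sources used here. No unit is named for the deposited values, which were taken to be FPKM, judged by table layout and range. Each gene also carries a deposited p-value and q-value of the authors' own test. Rows with no symbol, between 49.9% and 54.1% of the summed FPKM, were left out; where a symbol recurred, its row of highest mean was kept.

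Values were taken as log2(FPKM + 1) for genes with a mean of at least 1 FPKM, so differences understate the change of low genes. The fit of MSC KO against WT used limma 3.58.1 (R 4.3.3), blocked by table, with a prior variance that follows the mean level (2.36 prior and 1 residual degrees of freedom), two-sided, Benjamini-Hochberg adjusted over all 10603 genes, threshold 0.05. The method was tested on simulated data with planted changes larger than those of the tested members, so that check does not cover changes of their size. The deposited tables give no read totals, so depth was estimated from steps of low values in genes with transcripts longer than 2500 bp. It was set where these genes lay nearest to whole fragments, with 58 to 75 of 108 to 129 genes per library within 0.15. That closeness was fitted on the same genes and is no check of the depth. Fragment numbers rest on this depth and on the longest annotated transcript of each gene. The spread between replicates over counting noise was 6.84 times in MSC KO and 2.17 times in WT, so all libraries were kept apart. Motifs were searched on both strands. Python 3.11.15 and pandas 2.3.3 prepared the tables.

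Every tested member was named. Members, lists and tests were chosen with earlier results of these data known. Alternatives covered the block, pseudocount, filter, scaling, prior, small RNA symbols and each library left out.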

Additional observations from a re-analysis of the deposited data

How the results depend on the processing

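The numbers 1 and 2 share a table but were not shown to pair the samples: deviations of same-numbered libraries correlated at 0.0589. With the table as a block 1 gene was called, and with no replicate block 153 were, with 0 members in either fit. Genes called numbered 0 with a pseudocount of 5, no filter, quantile normalization, an untrended prior or WT libraries averaged and counted once (chosen after seeing the data), 3 with a mean of at least 5 FPKM, 7 when libraries were rescaled to the same sum and 26 without small RNA symbols. Leaving out a library, in fits with no block where the lone sample is assumed to vary like the other group, gave 0 to 2672 genes (0 without WT 1, 3 without WT 2, 2301 without MSC KO 1, 2672 without MSC KO 2) and 0 to 18 members. The members called, all lower, numbered 12 without MSC KO 1 and 18 without MSC KO 2, where 21.7% and 25.2% of all genes were called. The count lower in both tables has no value there.

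The sterol synthesis median kept its sign in every alternative and lay between -0.41 and -0.26 with a library left out. Left-out ranges were -0.20 to -0.11 for sterol sensing, -0.31 to -0.15 for lipogenesis, -0.62 to -0.52 for efflux, -0.17 to -0.11 for synthesis minus lipogenesis and 0.20 to 0.26 for synthesis minus efflux. The efflux median was -1.01 and -0.20 with pseudocounts of 0.1 and 5, -0.21 with no filter, which adds Abca1, -0.64 after quantile normalization and 0.15 with at least 5 FPKM, where only Nr1h2 is left. Synthesis minus efflux was 0.67 and -0.12 with those pseudocounts, -0.13 with no filter, -0.49 with at least 5 FPKM, 0.30 after quantile normalization and 0.21 with the same sum. Synthesis minus lipogenesis was -0.13 with a pseudocount of 5 and -0.13 after quantile normalization. Signs turned for Acaca (0.024 without WT 2 and 0.019 without MSC KO 1, lowest -0.19 without WT 1), Pmvk (0.0074), Fasn (0.038) and Elovl6 (-0.066) without MSC KO 1, and Scap (0.14) without MSC KO 2. The cause was not tested.

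Each group had 2 libraries, and why no member was called in the fit of all 4 was not tested. Levels of Hmgcs1 and Tm7sf2 were not analysed here.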
